A study of Danio rerio with 4 samples.

Results

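The plakin genes of the zebrafish were examined in 4 libraries from whole embryos at 24 h post fertilisation. They were chosen by symbol: macf1a, pleca, eppk1 and DST matched exactly, while dspa and dspb did not, and the 2 gene IDs that carry the symbol DSP were taken in their place without knowing which is which. This gave 6 genes out of 31953 in the count tables. Earlier results of these libraries were known when the genes were chosen, foremost the difference between the RIP-seq libraries, so the values below are a description and carry no test.

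Plakins are giant cytolinker proteins that tie intermediate filaments, microtubules and actin to each other and to cell junctions. Spectraplakins (macf1a, DST) bridge actin and microtubules, plectin (pleca) anchors intermediate filaments in skin and muscle, desmoplakin joins keratins to the desmosomes that hold epithelial and heart cells together, and epiplakin (eppk1) is built almost wholly of plakin repeats and binds keratins. In people, loss of plectin causes skin blistering with muscular dystrophy, and loss of the epithelial DST isoform weakens the hemidesmosomes that fix the epidermis to its base.

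RNA-seq was done on wild-type embryos and on ddx39a mutants. DDX39A is a DEAD-box RNA helicase that acts in mRNA processing and export. RIP-seq, the sequencing of RNA recovered with a tagged protein, was done in 1 library labelled wild type and 1 labelled ddx39a mutant. For both RIP-seq libraries the protocol gives injection of ddx39a mRNA with a Flag tag into newly fertilised mutants and pull-down on anti-Flag beads. The genotype labels and this protocol do not agree, so neither library is taken as a mock and each is named by its label. No mutant allele is given, and the embryos are whole, so fewer cells of a type and less RNA per cell cannot be told apart. With 1 library per group, each comparison is between libraries and has no replicate check.

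Gene counts summed to 9922182 in wild-type and 9533101 in mutant RNA-seq, and to 1966053 and 2246938 in RIP-seq under the wild-type and the mutant label. The 5 leading features took 75.5% and 69.5% of the RIP-seq gene counts, against 4.15% and 4.08% in RNA-seq, and alignments to several places made up 91.8% and 89.5% of RIP-seq records. Of the 2 gene IDs with the symbol DDX39A, ENSDARG00000015111 had 3742 counts in wild-type and 706 in mutant RNA-seq, then 318 and 199 in RIP-seq. ENSDARG00000006225 had 2242, 2382, 191 and 153 counts in the same order. The RIP-seq counts of both may include the injected mRNA. Muscle and skin were represented. Of 4 muscle marker symbols, mylpfa and desma had no match, which left 3 gene IDs: actc1b and 2 named TNNT3. In wild-type RNA-seq these summed to 5212 CPM (counts scaled to the same total of gene counts in each library). There 5 of 5 epidermal markers summed to 16069. In mutant RNA-seq the sums were 2979 for muscle and 16384 for epidermis.

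Levels are given below as counts and as CPM of the library total, and are set side by side only for the same gene in different libraries, because transcript lengths were not used. Ratios are of counts scaled by TMM factors over the pair of libraries. Each has a 95% exact conditional binomial interval, which covers counting error only. A call needed a ratio of 2-fold or more in either direction and an interval that left out equality.

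In whole-embryo RNA-seq, each of the 6 plakin genes was at most 1.28-fold apart between the libraries, and none was called in either direction. Of the 18800 genes compared, 2.16% were called higher and 2.6% lower, so no call among 6 genes is near the background. Together the 6 genes had 12594 counts in wild type (1269 CPM) and 12277 in mutant (1288 CPM).

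The spectraplakin gene macf1a had 2373 counts in wild type and 1923 in mutant, 1.24-fold lower in the mutant library (interval 1.16 to 1.31). DST had 916 and 716 counts, 1.28-fold lower (1.16 to 1.41). Both spectraplakins were thus on the lower side, with intervals that left out equality but at a size far under 2-fold. The plectin gene pleca had 4773 and 5206 counts, 1.09-fold higher (1.05 to 1.13), and eppk1 669 and 747, 1.11-fold higher (1.00 to 1.24). Desmoplakin split: DSP ENSDARG00000022309 had 2044 and 2116 counts, 1.03-fold higher (0.972 to 1.10), and DSP ENSDARG00000076673 had 1819 and 1569, 1.16-fold lower (1.08 to 1.24). The median log2 ratio of the 6 was -0.08, beside 0.00 for all genes compared.

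**Figure D1:**
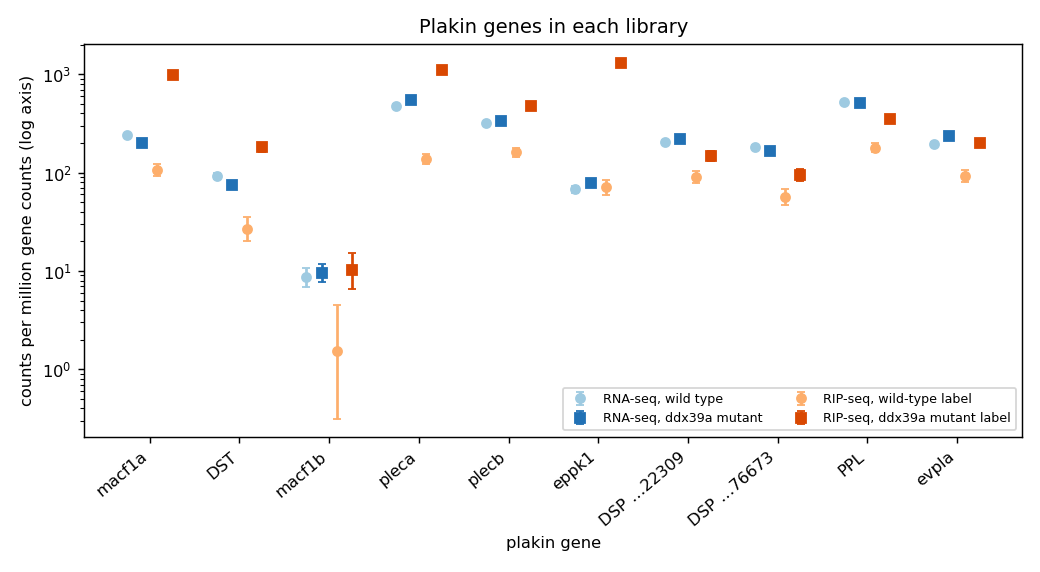
CPM of the library total (log axis) of 10 plakin genes in each of the 4 libraries, 1 library per group, with 95% exact Poisson intervals of counting error; the last digits of the gene ID tell the DSP genes apart. For macf1a, DST, pleca, eppk1 and plecb the RIP-seq library with the mutant label stands at 975, 180, 1112, 1292 and 473. Each is above the other 3 libraries with separate intervals.

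The RIP-seq libraries differed far more. Epiplakin, both spectraplakins and pleca were called higher with the mutant label, while the desmoplakin genes, which sit in the same protein family, were about 1.5-fold higher and not called. So 4 of 6 genes were called higher and none lower, beside 8.37% higher and 5.3% lower of the 15762 genes compared; the genes were chosen with this contrast known, so nothing is read from that count. The median log2 ratio of the 6 was 2.77, beside -0.06 for all genes compared, whose middle 90% ran from -2.62 to 2.51.

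Epiplakin had the highest ratio of the 6 genes. The counts of eppk1 were 139 under the wild-type label (70.7 CPM, 59.4 to 83.5) against 2903 under the mutant label (1292 CPM, 1245 to 1340). The ratio was 17.04-fold (14.4 to 20.4), place 44 from the top among the genes compared, a ranking by log2 ratio with a prior count of 0.5 in which many genes have few counts. The mutant-label library thus held over 4 times as many eppk1 counts as wild-type RNA-seq did (669), although its total was far smaller.

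For the spectraplakins, macf1a had 208 counts under the wild-type label (106 CPM) against 2191 under the mutant label (975 CPM), 8.60-fold higher (7.45 to 9.96). DST, whose products serve hemidesmosomes and neurons, had 53 counts (27.0 CPM) and 405 (180 CPM), 6.24-fold higher (4.67 to 8.47). The intervals of the spectraplakins overlap, and both lie below that of eppk1. Plectin was close to them: pleca had 271 counts (138 CPM) and 2499 (1112 CPM), 7.52-fold higher (6.64 to 8.56).

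The desmoplakin genes were apart from these 4. DSP ENSDARG00000022309 had 178 counts (90.5 CPM) and 332 (148 CPM), 1.52-fold higher (1.26 to 1.84). DSP ENSDARG00000076673 had 112 counts (57.0 CPM) and 213 (94.8 CPM), 1.55-fold higher (1.23 to 1.97). Neither reached 2-fold, and the upper bound of both lies under the lower bound of DST, the lowest of the others.

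**Figure D2:**
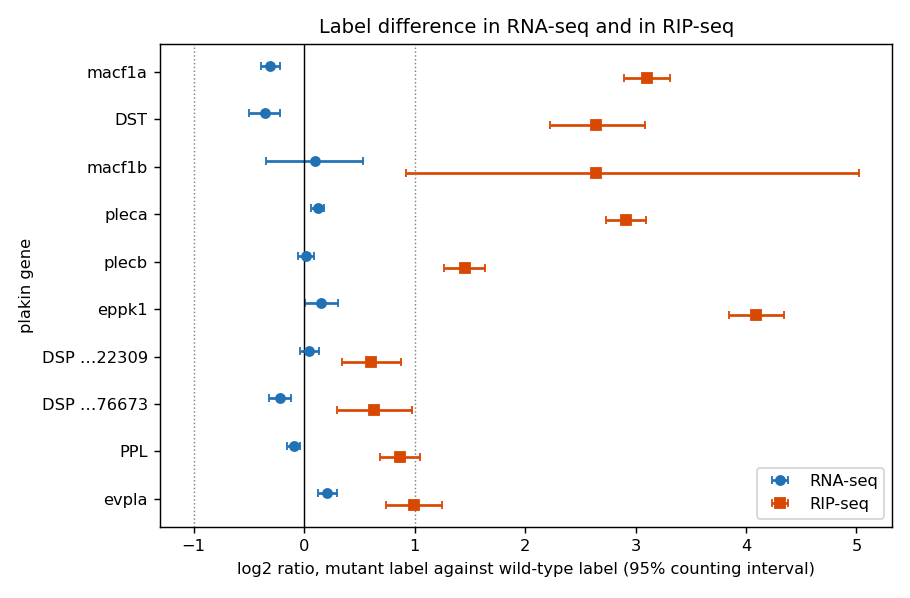
Log2 ratio of the mutant-label against the wild-type-label library for 10 plakin genes, in RNA-seq (circles) and RIP-seq (squares), with 95% counting intervals; dotted lines mark 2-fold. All RNA-seq ratios lie close to 0, while RIP-seq ratios run from 0.61 for DSP ENSDARG00000022309 to 4.09 for eppk1.

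The other 4 plakin genes in the tables, whose counts had also been seen before, were on the higher side in RIP-seq too. The second plectin gene, plecb, had 317 counts under the wild-type label against 1063 under the mutant label, 2.74-fold higher (2.41 to 3.11). The second macf1 gene, macf1b, had only 3 and 23 counts, 6.26-fold higher with a wide interval (1.89 to 32.5). Both passed the call rule, plecb at a size well under that of pleca. The periplakin gene PPL, of epidermal envelopes and junctions, had 353 and 789 counts, 1.82-fold higher (1.61 to 2.07). The envoplakin gene evpla, whose product partners periplakin, had 183 and 447 counts, 1.99-fold higher (1.67 to 2.38). Neither of these reached 2-fold. In RNA-seq none of the 4 was called: their log2 ratios were 0.10 for macf1b, 0.02 for plecb, -0.09 for PPL and 0.21 for evpla.

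Muscle and epidermal marker genes ran the other way in the same RIP-seq pair. All 3 muscle marker gene IDs (actc1b and both named TNNT3) and all 5 epidermal markers had a lower CPM with the mutant label. Their sums went from 551 to 259 CPM for muscle and from 7089 to 4764 CPM for epidermis. The sums are mostly those of actc1b, krt4 and krt5. Other markers were low or differed little: TNNT3 ENSDARG00000068457 had 2.03 and 0.89 CPM, and cldne 21.4 and 18.2 CPM. In the muscle filament and costamere list given below, 5 of 22 genes were called higher and 2 lower in this pair. Of all genes, 8.37% were called higher and 5.3% lower. The 3 muscle marker IDs therefore do not stand for all muscle genes. In RNA-seq the muscle markers were also lower in the mutant library (3 of 3), and 2 of 5 epidermal markers were. No marker was at 0 in any library. The part of tissue make-up in the plakin values was not tested.

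**Figure D3:**
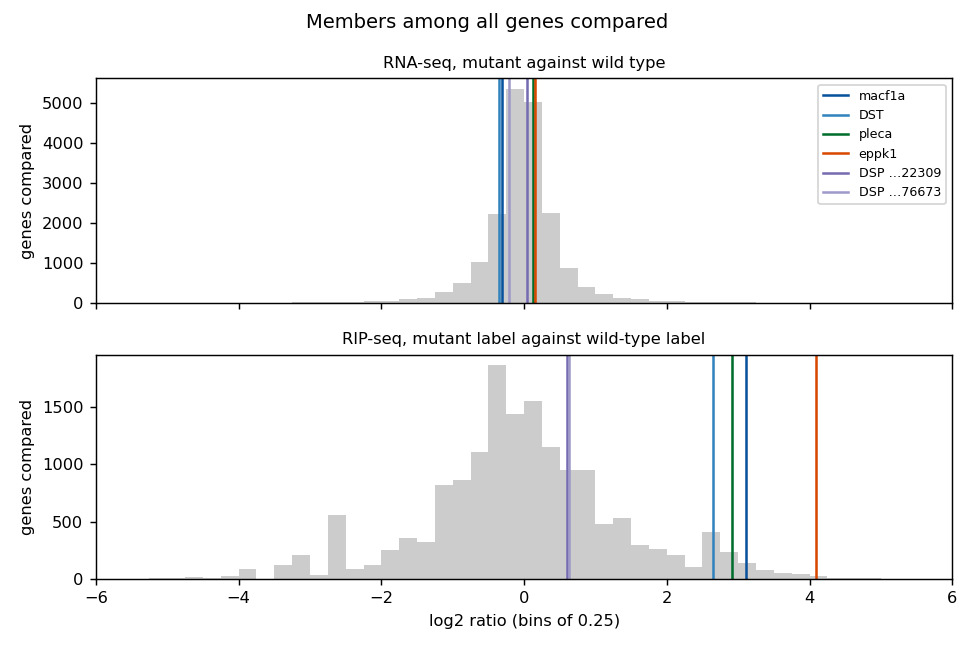
Number of genes compared per bin of log2 ratio (grey, bins of 0.25) with the 6 plakin genes as vertical lines, for RNA-seq (top) and RIP-seq (bottom). In RNA-seq the 6 lie between -0.36 and 0.16, with macf1a and DST below the lower quartile of all genes compared (-0.23). In RIP-seq macf1a, DST, pleca and eppk1 lie in the upper tail between 2.64 and 4.09, and the DSP genes near 0.6.

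The difference between the assays was taken as the RIP-seq log2 ratio minus the RNA-seq log2 ratio, with an interval from the 4 counts. It was 3.93 (3.65 to 4.22) for eppk1, 3.41 (3.19 to 3.63) for macf1a, 3.0 (2.56 to 3.43) for DST and 2.79 (2.60 to 2.98) for pleca. For the desmoplakin genes it was 0.56 (0.28 to 0.84) for DSP ENSDARG00000022309 and 0.85 (0.51 to 1.19) for DSP ENSDARG00000076673. For these 6 genes the RIP-seq log2 ratio was above the RNA-seq one, with each interval leaving out equality. The share of all genes with such a difference was not computed. For macf1a, DST and DSP ENSDARG00000076673 the assays had opposite signs. The genes were chosen with the RIP-seq difference known, so nothing is read from the size of these values or from how many genes show them.

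The make-up of the plakin counts is another view of the same counts. It needs no scaling between libraries, since each share is taken within a library, and a share can fall while counts rise. Of the counts of all 10 plakin genes, eppk1 took 2.92% in wild-type RNA-seq (exact binomial interval 2.70 to 3.14), 3.30% in mutant RNA-seq (3.07 to 3.54), 7.65% in RIP-seq under the wild-type label (6.47 to 8.97) and 26.7% under the mutant label (25.9 to 27.6). The macf1a share was 10.3%, 8.49%, 11.4% and 20.2% in that order. Both genes thus took their highest share in RIP-seq with the mutant label. The 4 desmoplakin, periplakin and envoplakin genes together held 47.8%, 47.5% and 45.5% in the first 3 libraries and 16.4% (15.7 to 17.1) in the last. Their summed RIP-seq counts were 826 under the wild-type label and 1781 under the mutant label, so only their share fell. The 5 spectraplakin and plectin genes held 49.3%, 49.2%, 46.9% and 56.9%. The intervals of these class shares overlapped among the 3 libraries other than RIP-seq with the mutant label, and that library lay outside them.

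**Figure D4:**
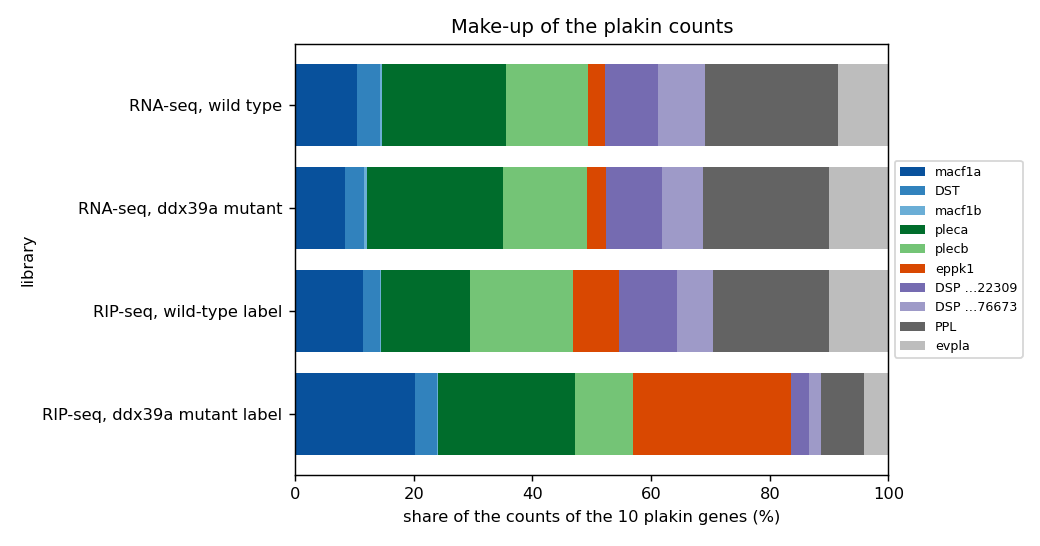
Share of the summed counts of 10 plakin genes taken by each gene, in percent, for the 4 libraries. The RNA-seq bars nearly match, and in RIP-seq with the mutant label eppk1 widens to 26.7% while the DSP genes, PPL and evpla narrow to 16.4% together.

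Paralogs did not keep a fixed ratio. Of the counts of the plectin genes, pleca took 60.2% (59.1 to 61.3) in wild-type RNA-seq and 61.9% (60.9 to 62.9) in mutant RNA-seq. Its share was 46.1% (42.0 to 50.2) in RIP-seq under the wild-type label, against 70.2% (68.6 to 71.7) under the mutant label. The pleca share was therefore lowest in one RIP-seq library and highest in the other, on either side of RNA-seq. For the DSP genes the share of ENSDARG00000022309 was 52.9% (51.3 to 54.5) and 57.4% (55.8 to 59.0) in RNA-seq, and 61.4% (55.5 to 67.0) and 60.9% (56.7 to 65.0) in RIP-seq, where the labels overlap. Paralogs can exchange reads in alignment, and repeats inside plakin genes lose reads that align to several places, so single values are uncertain to that degree.

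RIP-seq was also set against RNA-seq of the same label. With no library taken as a mock and labels that disagree with the protocol, these ratios do not show which RNAs were recovered with DDX39A. These comparisons share libraries with those above, so they are other views of the same counts. With the wild-type label eppk1 was called higher in RIP-seq, 3.73-fold (3.09 to 4.49), and the other 5 genes lay between 1.02-fold (pleca, 0.899 to 1.15) and 1.58-fold (macf1a, 1.36 to 1.82) without a call. That is 1 of 6 called higher, beside 9.01% higher and 14.1% lower of 17412 genes compared. With the mutant label 5 of 6 were called higher, beside 13.8% higher and 16.2% lower of 17711 genes. There eppk1 was 57.2-fold higher (52.7 to 62.1), macf1a 16.8-fold (15.8 to 17.8), DST 8.32-fold (7.35 to 9.41) and pleca 7.06-fold (6.73 to 7.41). DSP ENSDARG00000022309 was 2.31-fold higher (2.05 to 2.59) and DSP ENSDARG00000076673 1.997-fold (1.72 to 2.31), just under the rule.

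These ratios depend on the scaling because a few features fill the RIP-seq libraries. Scaling to total gene counts moved all log2 ratios by -1.83 for the wild-type label, and by -1.79 for the mutant label. With the wild-type label the log2 ratio of eppk1 then became 0.07, and the other 5 genes were called lower. Of the 18822 genes compared under this scaling, 1.65% were called higher and 71.3% lower, so the 5 lower calls are near the background. With the mutant label macf1a (2.27), DST (1.26), pleca (1.03) and eppk1 (4.04) stayed called higher, and the DSP genes turned to -0.59 and -0.79. There 2.69% of 18579 genes were called higher and 69.7% lower. In the RNA-seq pair and the RIP-seq pair, total gene counts moved all log2 ratios by 0.06 and 0.10. Totals without the 5 leading features moved those of the RIP-seq pair by -0.22, which put macf1a at 2.88 and pleca at 2.69, each just below its interval, with 4 genes still called higher. Under that scaling 5.36% of all genes compared in the pair were called higher and 7.12% lower.

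**Figure D5:**
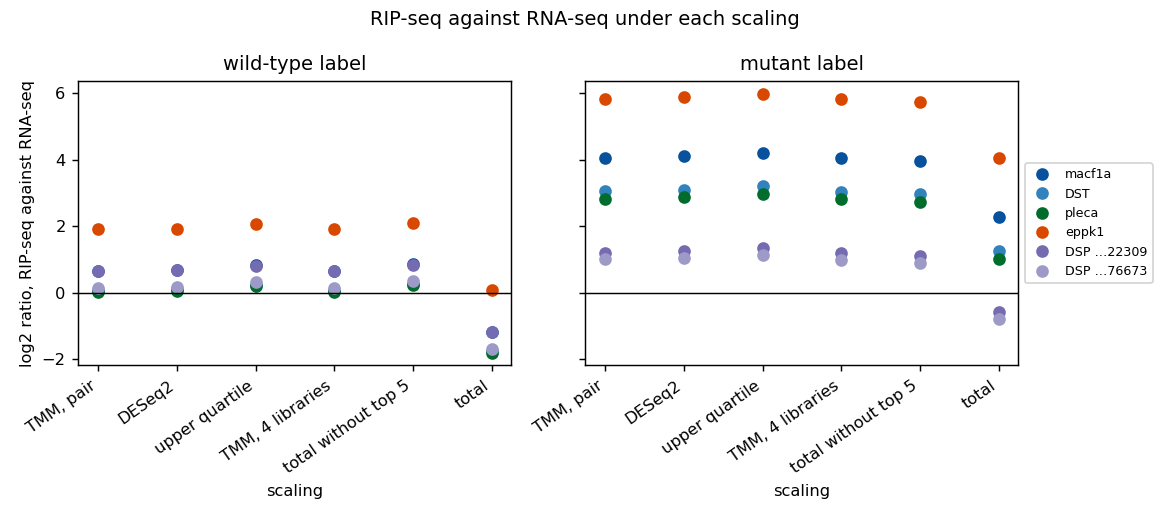
Log2 ratio of RIP-seq against RNA-seq for the 6 plakin genes under 6 scalings, for the wild-type label (left) and the mutant label (right), 1 library each. Only scaling to total gene counts moves the points far, and with the mutant label macf1a, DST, pleca and eppk1 stay above 0 under each.

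Genes whose products work beside plakins were followed in 6 lists, as counts called and medians. The lists too were chosen with earlier results of these libraries known, so nothing is read from how many of their genes were called. In RNA-seq 1 of 125 list genes compared was called, beside 2.16% higher and 2.6% lower of all genes. It was krt98, a keratin gene with 13 counts in wild type and 0 in mutant. The interval of its ratio began at 3.05-fold lower and had no upper bound. Against a floor of 3 counts per library, krt98 was 4.34-fold lower, which is not a bound on the ratio. The list medians in RNA-seq ran from -0.36 for the spectrin and ankyrin list to 0.02 for desmosome genes, beside 0.00 for all genes. The spectrin and ankyrin list also holds the actinin gene actn3a.

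In the RIP-seq pair the lists differed among themselves, beside the background of 8.37% higher and 5.3% lower. Hemidesmosome and basement membrane genes had 8 of 17 called higher and none lower, with a median log2 ratio of 1.23, or 1.81 over the 10 matched by exact symbol. They included HMCN1, a hemicentin of the matrix (48 and 363 counts, 6.17-fold, 4.56 to 8.52) and the laminin chain LAMA5 (84 and 593 counts, 5.76-fold, 4.58 to 7.33). The spectrin and ankyrin list had 6 of 16 higher and none lower, with a median of 0.66. Its most abundant gene, SPTAN1, had 262 and 766 counts, 2.39-fold higher (2.07 to 2.76). In both lists the called genes were on the same side as macf1a, DST, pleca and eppk1. As this contrast was known when the lists were chosen, nothing is read from that.

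Desmosome genes had none of 13 called in either direction and a median of 0.04. The plakoglobin gene JUP (ENSDARG00000070787), which binds desmoplakin, had 103 and 128 counts, a ratio of 1.01 (0.776 to 1.33). Keratin and periderm genes had 6 of 28 called lower and none higher, with a median of -0.61; krt4 had 10588 and 8053 counts, 1.61-fold lower (1.57 to 1.66), and krt5 had 2616 and 2262, 1.42-fold lower (1.34 to 1.5). Keratin genes krt4 and krt5, of the filaments that plakins bind in skin, were thus on the opposite side to the linkers eppk1 and pleca, at a size under 2-fold.

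Muscle intermediate filament and costamere genes were mixed, with 5 of 22 higher, 2 lower and a median of 0.10, or 0.23 over the 13 matched by exact symbol. The list also holds LMNB1, a nuclear lamin gene that is not specific to muscle. Of its 2 most abundant genes, FLNC ENSDARG00000018820 was 2.09-fold higher (1.83 to 2.39). The other, LMNB1, was 1.28-fold lower (1.08 to 1.52) and not called. The dystrophin gene dmd, which links actin to the muscle membrane, had 74 and 320 counts, 3.53-fold higher (2.73 to 4.61), and the filamin gene FLNC (ENSDARG00000018566) had 72 and 265, 3.0-fold higher (2.31 to 3.95). Microtubule plus-end and spectraplakin partners had 5 of 21 higher, 1 lower and a median of 0.10, which became 0.76 over the 10 genes matched by exact symbol. The minus-end binder CAMSAP2 (ENSDARG00000062173) had 15 and 68 counts, 3.70-fold higher (2.09 to 6.97), while the plus-end binder mapre1b had 77 and 76, 1.24-fold lower (0.893 to 1.73).

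Against RNA-seq of the same label, the background was 13.8% higher and 16.2% lower under the mutant label, and 9.01% and 14.1% under the wild-type label. The spectrin and ankyrin list had 8 of 17 called higher and 0 lower under the mutant label, against 0 of 17 higher and 1 lower under the wild-type label. The gene called lower was actn3a, an actinin gene (3229 and 86 counts, 2.09-fold, 1.69 to 2.62), not a spectrin or ankyrin. Hemidesmosome and basement membrane genes had 6 of 19 higher and 1 lower, against 0 of 17 higher and 3 lower. Desmosome genes had 2 of 13 higher and 1 lower, against 1 of 12 higher and 0 lower. Microtubule partners had 8 of 22 higher and 2 lower, against 4 of 23 higher and 2 lower. Muscle filament and costamere genes split evenly under the mutant label, 4 of 23 higher and 4 lower, and had 2 of 23 higher and 5 lower under the wild-type label. Keratin and periderm genes split too, with 6 of 29 higher and 7 lower, against 8 of 29 higher and 5 lower. Within that list krt91 was 7.33-fold higher (5.36 to 9.91) under the wild-type label, against 12.2-fold higher (9.22 to 16.1) under the mutant label, while icn2 was 10.04-fold (6.08 to 18) and 50.7-fold lower (17.3 to 246).

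Likeness to the median plakin profile was measured as the Euclidean distance between the 4 centred log2 CPM values, over 4 libraries and 11260 genes with a name and a CPM of 5 or more in some library. CPM was here scaled by TMM factors over the 4 libraries. The nearest were EP400, a chromatin remodelling ATPase (distance 0.23), the centrosomal scaffold cdk5rap2 (0.23), dnah9l (0.24), the formin FHOD1 (0.26) and the centrosomal scaffold pcnt (0.26). In RIP-seq under the wild-type label dnah9l had only 3 counts and FHOD1 8, so the distances of these genes are uncertain. EP400 had 1581 and 1629 counts in RNA-seq and 123 and 793 in RIP-seq, with ratios of 1.03 and 5.26. Among the plakin genes themselves the distance to their own median ran from 0.35 for DST to 2.51 for eppk1.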

How the data were processed

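The authors deposited 1 table of raw counts for each library, with Ensembl gene IDs. The submitters' processing notes name HTSeq 0.6.1p1, beside TopHat2 2.2.1, Bowtie2 2.2.3, FastQC 0.11.5, bcl2fastq and the build GRCz10. How strand was handled is not given in the sources used here, and neither is the annotation release; reads of overlapping or antisense genes therefore cannot be told apart. The 5 HTSeq summary rows were kept out of totals. In wild-type and mutant RNA-seq 53.8% and 54.0% of unique alignments fell in no gene, and in RIP-seq 82.1% and 79.2%. A symbol table matched 26121 of 31953 gene IDs. TMM factors were computed per pair with edgeR 4.0.16 in R 4.3.3. Genes were compared if 1 library of the pair reached a CPM of 1. For this filter CPM was taken on library totals scaled by the TMM factors, not on the plain totals. Medians used a prior count of 0.5. Intervals and calls of the RNA-seq pair and the RIP-seq pair were checked on counts simulated with counting error alone. Such counts cannot show the spread between libraries, and RIP-seq against RNA-seq was not checked. Python 3.11.15, numpy 2.4.6, pandas 2.3.3, scipy 1.17.1 and matplotlib 3.10.9 were used. Alternatives are other scalings (DESeq2 1.42.0 size factors among them), filters, fold sizes and priors.

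The genes, the lists and the rule for genes to name were chosen with earlier results of these data known. The rule named all plakin genes, the 2 most abundant and up to 2 called genes with the largest ratio per list and comparison, and the 5 nearest profiles; the text gives some of these. A planned comparison with protein length was not made, since no lengths were used here. No sequences are shown. Since reads carry no molecular identifiers, they need not be separate molecules, and intervals and floors speak to counting error alone.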

Additional observations from a re-analysis of the deposited data

Results flagged for a closer look

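For 3 of the 6 chosen plakin genes the library labelled mutant was lower than the one labelled wild type in RNA-seq and higher in RIP-seq, with each interval excluding equality. The RIP-seq log2 ratio minus the RNA-seq log2 ratio was 3.41 for macf1a, 3.0 for DST and 0.85 for DSP ENSDARG00000076673. Outside the 6, PPL had the same pair of directions, 1.07-fold lower in RNA-seq (1.03 to 1.11) and 1.82-fold higher in RIP-seq (1.61 to 2.07). With 1 library per group the difference between the assays was not tested. The share of all genes with this pair of directions was not computed. Since the RIP-seq difference was known when the genes were chosen, nothing is read from the count of 3.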

How the results depend on the processing

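No paired analysis was possible because each group has 1 library, and none could be left out. The counts of called plakin genes in the RNA-seq pair (0) and the RIP-seq pair (4 higher) were the same under all 10 alternatives. Some of these could not change them: the other filters left the ratios of these genes as they were. In the RNA-seq pair the stricter call rules could not raise a count of 0. In the RIP-seq pair they could not drop a gene, as DST, the lowest called, was 6.24-fold higher (4.67 to 8.47). The other scalings moved log2 ratios by 0.06 or less in the RNA-seq pair, and by -0.22 to 0.10 in the RIP-seq pair. That was too little to bring any of the 6 genes across 2-fold. Across the 10 alternatives, 2.79% to 13.4% of all genes compared in the RIP-seq pair were called higher. RIP-seq against RNA-seq with the mutant label gave 4 to 6 called higher. Of all genes compared there, 2.69% (total gene counts) to 16.5% (CPM of 5) were called higher. With the wild-type label RIP-seq against RNA-seq gave 0 higher and 5 lower with total gene counts, beside 1.65% and 71.3% of all genes. At 4-fold it gave 0 higher, beside 4.35%. With the mutant label DSP ENSDARG00000022309 turned to -0.59 with total gene counts. Totals without the 5 leading features lowered the difference between assays to 3.13 for macf1a and 2.51 for pleca and gave 1004 genes higher and 1333 lower in the RIP-seq pair (main 1319 and 835).

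With exact symbols the RIP-seq medians became 1.81 (hemidesmosome and basement membrane), 0.23 (muscle filament) and 0.76 (microtubule). Against RNA-seq with the mutant label they became 0.018, -0.39 and 0.59 (main 0.70, -0.21 and 0.71), and with the wild-type label the microtubule median became -0.53 (main 0.07). Fewer genes matched; the cause was not tested otherwise.

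Over all genes, RNA-seq calls (main 406 higher, 488 lower) fell to 114 and 194 at a CPM of 5, 99 and 114 at 4-fold, and 43 and 110 with the whole interval beyond 2-fold. For the RIP-seq pair the last 2 rules gave 564 and 367, and 440 and 74. Against RNA-seq with the wild-type label (main 1568 and 2450) they gave 758 and 1223, and 590 and 724, and with the mutant label (main 2441 and 2875) 1221 and 1348, and 1329 and 906. Total gene counts gave 310 and 13429, and 500 and 12946. With the wild-type label upper-quartile factors gave 2006 and 1934, and totals without leading features 2111 and 1859. RIP-seq depth limits macf1b most, with 3 counts.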
